A study of Mus musculus with 4 samples.

Results

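Pericentral sinusoidal endothelial nuclei are taken here as nuclei of the liver's sinusoidal lining that carry transcripts known from the endothelium next to the central vein. They were chosen by counts of unique molecular identifiers (UMIs, which mark single captured transcripts): at least 500 detected genes, at most 5% mitochondrially encoded UMIs, at least 4 UMIs summed over the sinusoidal genes Stab2, Ptprb, Bmp6, Adgrl4 and Flt4, 0 UMIs of Cd5l, Clec4f, Reln, Skap1 and Pax5, and at least 2 UMIs summed over Wnt2, Kit, Rspo3, Thbd and Wnt9b. This gave 744 nuclei, out of 4927 that met the sinusoidal conditions, 25611 that passed the filters and 26591 deposited barcodes. The comparison class was the 3204 sinusoidal nuclei with 0 UMIs of the 5 pericentral genes, called zero-UMI nuclei below, and 979 sinusoidal nuclei held exactly 1.

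The liver tissue was non-tumor, from male mice aged 12 months. Each had been given the hepatocarcinogen diethylnitrosamine (DEN) when 14 days old, in a dose of 25 mg/kg. The labels give 2 libraries as Brca1-WT and 2 as Brca1-KO, so DEN exposure is shared by all 4 and no unexposed liver is compared. The series title concerns hepatic Brca1, a gene of DNA double-strand break repair, and Bhmt, an enzyme that remethylates homocysteine. The deleted part of Brca1, the cells it was deleted in and how mice map to libraries are not stated, so p-values measure the spread between these samples. Values in groups of 4 below follow the order Brca1-WT replicate 1, Brca1-WT replicate 2, Brca1-KO replicate 1, Brca1-KO replicate 2.

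Endothelial cells around the central vein secrete the WNT ligands Wnt2 and Wnt9b and the WNT enhancer R-spondin 3 (Rspo3), which maintain the perivenous programme of the neighbouring hepatocytes. Kit, a receptor tyrosine kinase, and Thbd (thrombomodulin, a thrombin receptor that slows clotting) are also known from this side of the sinusoid. Toward the portal side, sinusoidal endothelium is known for the scavenger receptor Msr1 and for Efnb2 and Dll4. Stab2 is a hyaluronan scavenger receptor found along the whole sinusoid.

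Promoter sequences were available from RefSeq (GRCm38.p6, 250 bases before to 50 after a start) for 3 of the 5 pericentral genes and for 10 of the 18 genes that differed between the classes below. The promoters of Wnt2 (chr6:18030396-18030695, minus strand), which defines the class, of Plppr5 (chr3:117574977-117575276, plus strand) and C1qtnf7 (chr5:43515319-43515618, plus strand), which were higher in it, and of Hmcn1 (chr1:150993386-150993685, minus strand), which was lower, are shown 5′ to 3′ so that both directions can be read beside each other. Capitals mark the letters AGATAA, bound by endothelial GATA factors, or AGGAAG, bound by ETS factors, on either strand.
Wnt2: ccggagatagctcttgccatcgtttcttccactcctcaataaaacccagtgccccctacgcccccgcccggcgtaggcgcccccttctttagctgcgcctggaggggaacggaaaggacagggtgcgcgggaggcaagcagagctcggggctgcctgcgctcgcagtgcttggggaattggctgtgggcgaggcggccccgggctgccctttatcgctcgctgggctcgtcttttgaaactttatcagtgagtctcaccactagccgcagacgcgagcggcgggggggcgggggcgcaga
Plppr5: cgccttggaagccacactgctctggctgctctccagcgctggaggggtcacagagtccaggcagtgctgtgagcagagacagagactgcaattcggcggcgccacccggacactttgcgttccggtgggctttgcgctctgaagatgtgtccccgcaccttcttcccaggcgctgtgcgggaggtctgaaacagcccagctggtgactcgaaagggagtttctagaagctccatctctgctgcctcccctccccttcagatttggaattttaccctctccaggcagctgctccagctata
C1qtnf7: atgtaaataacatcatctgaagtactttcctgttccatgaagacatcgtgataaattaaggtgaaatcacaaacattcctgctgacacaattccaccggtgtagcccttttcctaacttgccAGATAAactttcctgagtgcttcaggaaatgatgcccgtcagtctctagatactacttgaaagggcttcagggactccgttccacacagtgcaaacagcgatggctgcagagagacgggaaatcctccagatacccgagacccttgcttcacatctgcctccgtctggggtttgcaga
Hmcn1: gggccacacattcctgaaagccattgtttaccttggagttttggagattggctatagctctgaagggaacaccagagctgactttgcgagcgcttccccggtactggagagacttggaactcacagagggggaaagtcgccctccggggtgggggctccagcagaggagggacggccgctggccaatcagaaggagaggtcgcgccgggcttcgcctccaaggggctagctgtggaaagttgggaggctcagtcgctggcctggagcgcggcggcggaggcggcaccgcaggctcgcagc
Of the 4, C1qtnf7 alone held a match, AGATAA with its first base at -128 from the start. Across 32851 promoters of the same length, 11.2% held AGATAA and 35.4% held AGGAAG. Of the 19 promoters of the 10 matched genes, 2 (10.5%) held the first and 5 (26.3%) the second; overlapping matches were each counted, and a match is a description of the letters only.

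Before the results, the libraries are described as the files show them. The deposited barcodes held 36662067 to 45638888 UMIs per library, and the pericentral nuclei 1722699, 559518, 372757 and 142893. Brca1-KO replicate 2 stood apart: sinusoidal nuclei were 8.85% of its kept nuclei against 21.4% to 24.2% in the other 3 libraries, and its pericentral nuclei had a median of 15.5 UMIs of the 5 sinusoidal genes against 33 to 35. Libraries shared 9 to 19 barcodes among kept nuclei and 0 among pericentral nuclei. Brca1 gave 17, 3, 3 and 1 UMIs in the pericentral nuclei, too few to check the genotype there. In all kept nuclei its level was 11.9, 11.2, 17.3 and 5.48 CPM (counts scaled to a common library total), so the library labelled Brca1-KO replicate 1 held the highest level. The counts thus did not bear out that label, but a deletion need not lower them, as its extent and cells are not stated. Directions drawn between the genotypes below are therefore directions between labels.

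The label was checked against markers. The genes that chose the nuclei describe them and were not tested. Kit had a UMI in 274 of 368, 138 of 201, 86 of 131 and 32 of 44 pericentral nuclei, and Wnt2 in 225, 103, 68 and 26 of them. Rspo3 was found in 62, 50, 31 and 8, Thbd in 32, 12, 6 and 0 (0 of 44 allows a share of up to 6.82%), and Wnt9b in 30, 12, 11 and 4. Kit and Wnt2 thus carried most of the selection in every library, while the shares with an Rspo3 UMI were 16.8%, 24.9%, 23.7% and 18.2%. In kept nuclei with 0 UMIs of the sinusoidal genes, which are deeper (medians of 4612 to 6901 UMIs), 0.182% to 0.429% had a Wnt2 UMI and 0.385% to 0.965% a Kit UMI, but 6.89% to 9.22% had an Rspo3 UMI. Most Rspo3 UMIs of the liver lay outside the sinusoidal nuclei, which held 16.0%, 18.4%, 18.1% and 1.69% of them. Nuclei with 2 or more of the 5 genes made up 60.6%, 49.3%, 44.3% and 52.3% of the class.

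Other cell types were looked for in the same sums. Kit is also a mast cell gene, and Cpa3, Mcpt4 and Fcer1a, which define mast cells, were at 0 UMIs in all 4 pericentral sums. In all kept nuclei Mcpt4 and Fcer1a were also at 0, and Cpa3 gave 2, 4, 13 and 1 UMIs. Zeros in the smaller pericentral sums therefore cannot show whether mast cells were among these nuclei. Of the mast cell list, 6 to 8 of the 9 genes were at 0. Its summed level was 27.99 to 82.2 CPM, against 50.7 to 62.4 CPM in zero-UMI nuclei. Nearly all of that sum was Hdc, histidine decarboxylase, another gene of mast cells, at 43.5, 78.6, 77.8 and 27.99 CPM in pericentral against 58.0, 50.3, 61.0 and 52.7 CPM in zero-UMI nuclei. Hdc was thus higher in 2 libraries and lower in 2. The rule set Cd5l and Clec4f of Kupffer cells to 0. Of the Kupffer cell list 2 to 10 of 15 genes were at 0, with a summed level of 161 to 179 CPM against 163 to 205 CPM. The stellate list summed to 161 to 189 CPM against 166 to 332 CPM and the lymphocyte list to 249.5 to 301 CPM against 215 to 321 CPM. The cholangiocyte genes Epcam, Krt7 and Krt19 were at 0 in all 4 pericentral sums. They were also rare in all kept nuclei, with 0 to 13 UMIs per gene and library. Sox9, another cholangiocyte gene, gave 4, 0, 2 and 0 UMIs in pericentral and 1, 3, 8 and 3 UMIs in zero-UMI nuclei. Its levels were 2.32, 0, 5.37 and 0 CPM against 0.426, 1.16, 3.84 and 4.16 CPM. All 20 genes of the general hepatocyte list were present, at a summed level of 11662, 8843, 8145 and 13381 CPM in pericentral and 10918, 11074, 9434 and 11705 CPM in zero-UMI nuclei. The selection kept doublets, droplets that may hold a pair of nuclei: 65, 19, 10 and 5 pericentral nuclei were called doublets and held 55.6%, 30.7%, 31.0% and 48.4% of the UMIs of the class. The conditions on the 5 excluded genes removed 162, 26, 20 and 5 further nuclei that met all the others.

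At the edges of the rule, 179, 108, 67 and 20 nuclei held exactly 2 UMIs of the 5 genes, just inside, and 363, 296, 218 and 102 held exactly 1, just outside. Pericentral nuclei that just met the sinusoidal condition, with exactly 4 UMIs, numbered 2, 2, 0 and 1, and nuclei that just missed it, with 3, numbered 0, 2, 0 and 0. Median depth rose with the selection: pericentral nuclei had medians of 2456, 2049, 1978 and 1878.5 UMIs and zero-UMI nuclei 1833, 1397.5, 1489.5 and 1286. A condition of 2 UMIs is met more easily by a deep nucleus.

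The first comparison asked how the pericentral nuclei differed from the zero-UMI nuclei of the same livers in genes the selection did not use. UMIs were summed per library and class, and 13 genes (0.136% of those tested) were higher and 5 (0.0524%) lower in the pericentral sums. Those higher included Cdh13, Plppr5, Cit, Pde4b and the homeobox gene Lhx6, and those lower were Msr1, Hmcn1, Vegfc, Slc45a4 and Nrg1. The 18 genes were 0.189% of the 9535 tested with edgeR's quasi-likelihood test with library as a block (Benjamini-Hochberg adjusted p below 0.05). With each library left out in turn, 8 of the 18 passed every time: Plppr5, Cdh13, Cit, Pde4b, Ifitm10, Msr1, Hmcn1 and Vegfc. Without Brca1-KO replicate 2, the library that stands apart, 16 of the 18 still passed.

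Plppr5, a membrane protein of the lipid phosphatase-related family, stood at 83.7, 99.5, 139.7 and 72.4 CPM in pericentral nuclei and at 39.4, 22.4, 34.7 and 28.6 CPM in zero-UMI nuclei. The ranges of the classes did not overlap, with a log2 fold change of 1.64 ± 0.201 (SE) and an edgeR adjusted p of 0.000418. Cdh13, a lipid-anchored cadherin that binds adiponectin and LDL, stood at 586, 593, 726 and 854 CPM against 316, 140.3, 205 and 463 CPM. It was higher in all 4 libraries, by 1.42 ± 0.175 on the log2 scale (edgeR adjusted p 0.000418), and both classes were highest in Brca1-KO replicate 2. Ifitm10, a member of the interferon-induced transmembrane family, was the most even, at 103, 105, 109.6 and 101 CPM against 53.9, 37.5, 51.1 and 39.2 CPM (log2 1.17 ± 0.167, edgeR adjusted p 0.00127). Its pericentral values lay between 101 and 109.6 CPM, all above every zero-UMI value.

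Genes of intracellular signalling were among those higher. Pde4b, which degrades cyclic AMP, stood at 133, 318, 249.3 and 188 CPM against 75.9, 83.1, 110.3 and 87.4 CPM, and the classes did not overlap (log2 1.28 ± 0.170, edgeR adjusted p 0.000610). Cit, which encodes citron kinase, stood at 49.8, 145, 164 and 86.9 CPM against 26.7, 51.8, 39.5 and 28.6 CPM; it was higher in each library although Brca1-WT replicate 1 lay below the zero-UMI value of replicate 2 (log2 1.48 ± 0.192, edgeR adjusted p 0.000524). Slco3a1, an organic anion transporter, stood at 146, 192, 225 and 138 CPM against 86.1, 88.5, 87.2 and 118 CPM (log2 0.94 ± 0.160, edgeR adjusted p 0.00766). P3h2, which hydroxylates collagen prolines, stood at 142, 257, 266 and 86.9 CPM against 98.4, 84.3, 87.7 and 57.3 CPM (log2 1.15 ± 0.184, edgeR adjusted p 0.00473). Both were higher in each library, and for Slco3a1 the classes did not overlap, whereas the P3h2 value of Brca1-KO replicate 2 lay within the zero-UMI range. The call of Slco3a1 was kept only without Brca1-KO replicate 2 (adjusted p 0.00182; 0.0860, 0.0584 and 0.175 without the others in order), and that of P3h2 was lost without Brca1-WT replicate 2 (0.0584) or Brca1-KO replicate 1 (0.0692).

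Lhx6 and Zfp423 encode transcription factors. Lhx6 gave 36, 8, 11 and 6 UMIs in pericentral and 6, 0, 7 and 2 UMIs in zero-UMI nuclei, or 21.1, 14.5, 30.1 and 43.4 CPM against 2.54, 0, 3.37 and 3.01 CPM. Every zero-UMI level of Lhx6 lay below the filter on low counts, so it entered the test only through its pericentral sums. The classes did not overlap, and the log2 fold change was 3.50 ± 0.454 (edgeR adjusted p 0.000524); without Brca1-WT replicate 1 too few counts were left to test it. Zfp423 stood at 48, 52.5, 79.4 and 50.7 CPM against 22.5, 18.2, 14.9 and 33.2 CPM (log2 1.46 ± 0.242, edgeR adjusted p 0.00651), and its call was lost without Brca1-WT replicate 1 (0.0591) or Brca1-KO replicate 1 (0.0692).

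The remaining genes that were higher varied more between libraries. Adamtsl1, a secreted matrix protein, gave 20, 23, 30 and 0 UMIs in pericentral against 7, 10, 11 and 8 UMIs in zero-UMI nuclei, so it was lower in Brca1-KO replicate 2 (log2 2.87 ± 0.461, edgeR adjusted p 0.00633). It no longer passed when Brca1-WT replicate 2 (adjusted p 0.209) or Brca1-KO replicate 1 (0.131) was left out, and without Brca1-WT replicate 1 it was not tested. C1qtnf7, a secreted C1q-related protein, gave 99, 43, 39 and 2 UMIs against 64, 97, 60 and 13 UMIs, higher in CPM in the first 3 libraries (log2 1.22 ± 0.216, edgeR adjusted p 0.0112); the call was lost without Brca1-WT replicate 1 (0.168) or Brca1-KO replicate 1 (0.198). Sntg1, a syntrophin of the dystrophin complex, stood at 244, 468, 739.6 and 123 CPM against 138, 104, 118 and 40.7 CPM (log2 1.84 ± 0.268, edgeR adjusted p 0.0215), and its call was lost without Brca1-WT replicate 2 (0.9999) or Brca1-KO replicate 2 (0.383). Fmo2, a flavin-containing monooxygenase, stood at 159.8, 284, 260.2 and 21.7 CPM against 124, 117, 91.1 and 7.54 CPM (log2 1.03 ± 0.183, edgeR adjusted p 0.0120), and its call was lost without Brca1-WT replicate 2 (0.191) or Brca1-KO replicate 1 (0.234). Fmo2 and Sntg1 were lower in sinusoidal nuclei than in the liver as a whole: their level in all sinusoidal nuclei was 0.636 and 0.579 of that in all kept nuclei. With each pericentral nucleus matched in depth to a zero-UMI nucleus, neither passed in edgeR (Fmo2 0.71, adjusted p 0.113, and Sntg1 1.80, adjusted p 0.406). With doublets also removed Fmo2 passed (1.43, adjusted p 2.73e-10) and Sntg1 did not (1.64, adjusted p 0.507).

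Among the genes that were lower, Msr1, a scavenger receptor for modified lipoproteins, stood at 43.3, 39.8, 27.4 and 43.4 CPM in pericentral nuclei and 129, 92, 106 and 101 CPM in zero-UMI nuclei. Every pericentral value lay below every zero-UMI value, and Msr1 fell by 1.51 ± 0.184 on the log2 scale (edgeR adjusted p 0.000418). Hmcn1, an extracellular matrix protein, stood at 129, 159, 118 and 109 CPM against 238, 281, 313 and 239.6 CPM, again without overlap (log2 -1.02 ± 0.142, edgeR adjusted p 0.00104). Vegfc, the ligand of the receptor encoded by Flt4, gave 27, 5, 2 and 1 UMIs against 81, 100, 106 and 41 UMIs, or 15.8, 9.04, 5.48 and 7.24 CPM against 34.4, 38.7, 51.1 and 61.8 CPM. Its level in all sinusoidal nuclei was 0.936 of that in all kept nuclei. The classes did not overlap (log2 -1.75 ± 0.294, edgeR adjusted p 0.00731), while the counts of 1 and 2 leave the level in the libraries labelled Brca1-KO imprecise.

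Slc45a4, a solute carrier, stood at 9.37, 7.24, 8.22 and 7.24 CPM against 33.5, 40.6, 25.1 and 18.1 CPM (log2 -1.93 ± 0.295, edgeR adjusted p 0.00311). Its call was lost without Brca1-WT replicate 1 (0.106) or replicate 2 (0.0529). The pericentral values of Brca1-WT replicate 2, Brca1-KO replicate 1 and Brca1-KO replicate 2 rest on 4, 3 and 1 UMIs, each from 1 nucleus. With matched depth Slc45a4 was not tested. Nrg1, a ligand of ERBB receptors, stood at 15.2, 32.6, 27.4 and 7.24 CPM against 32.7, 73.4, 46.3 and 184 CPM (log2 -1.37 ± 0.278, edgeR adjusted p 0.0481). The zero-UMI value of Brca1-KO replicate 2 was far above the other 3, and the call of Nrg1 was kept only without Brca1-KO replicate 1 (adjusted p 0.0351). Leaving out the other libraries in order gave 0.196, 0.147 and 0.0571.

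**Figure D1:**
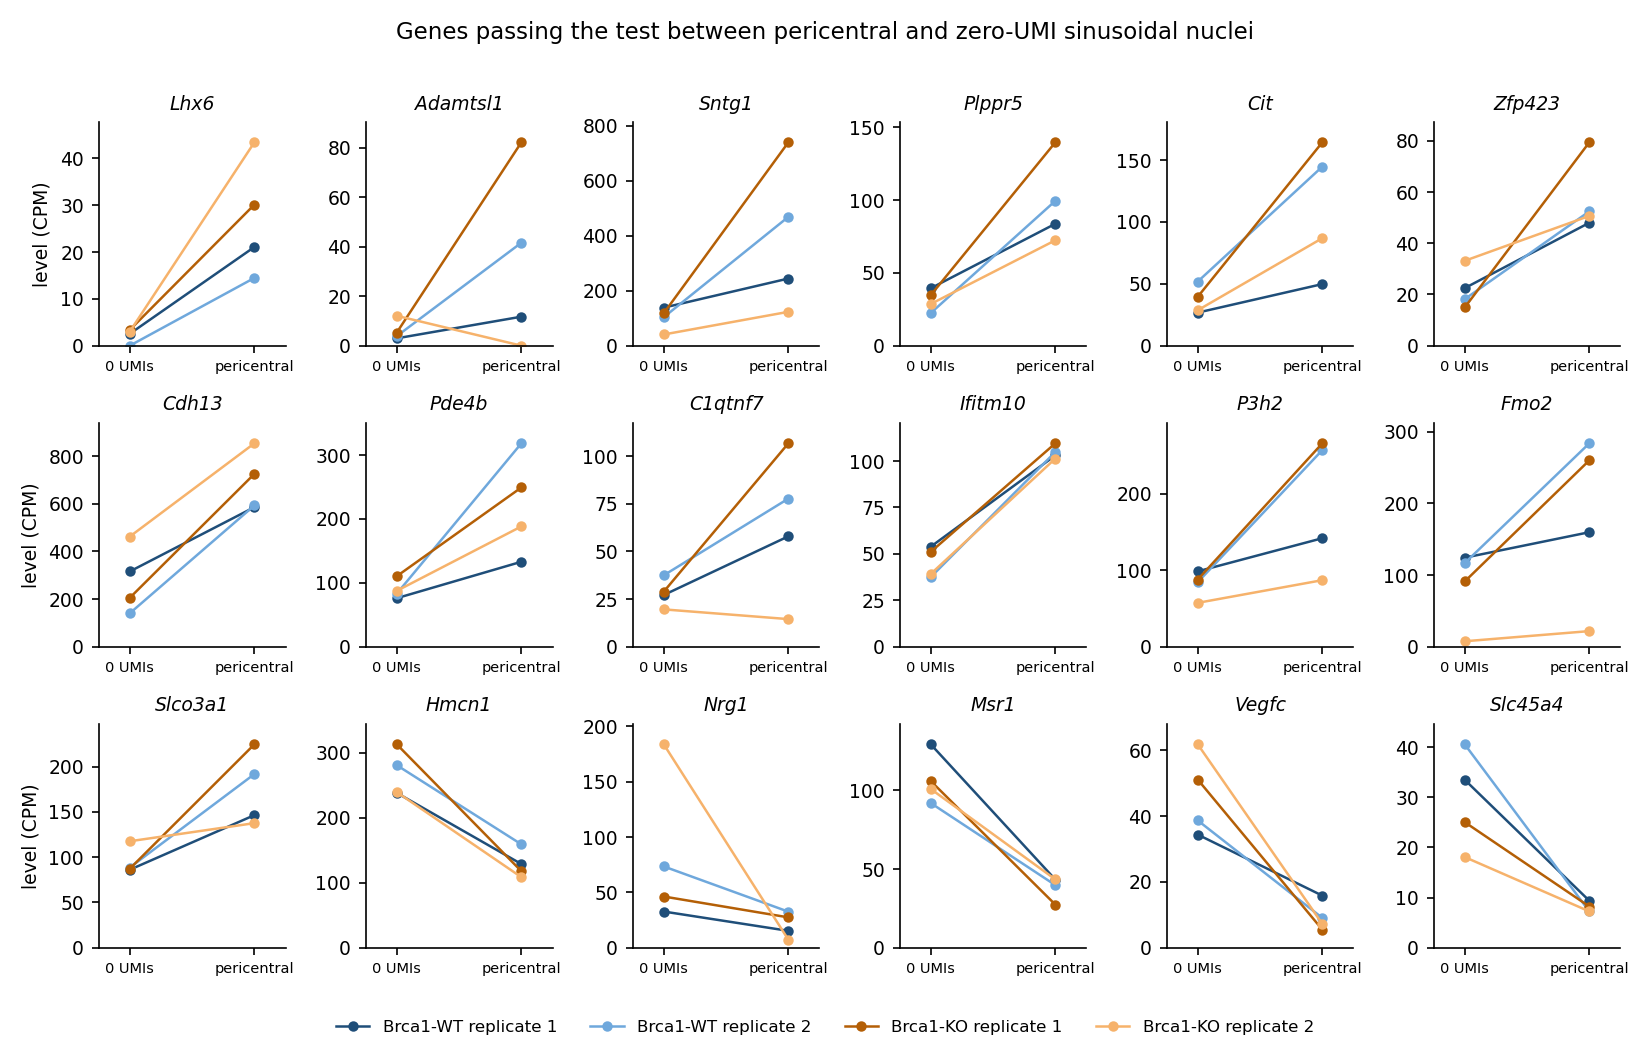
Level in CPM (y axis, linear from 0) of the 18 genes that passed the test, in zero-UMI and pericentral nuclei; each line joins the 2 sums of 1 library. Plppr5, Cdh13, Ifitm10 and Msr1 moved the same way in all 4 libraries, while Adamtsl1 and C1qtnf7 went the other way in Brca1-KO replicate 2.

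The lists of pericentral and periportal sinusoidal genes had medians of opposite sign. The lists were chosen with earlier results of these data known, so their counts are a description and no independent test. Lhx6 also met the filter on low counts only in the pericentral class, where it was high. Of 10 genes known from pericentral sinusoids outside the rule, 8 were tested: 2 passed as higher (Cdh13 and Lhx6), all 8 had a positive log2 fold change and 7 were higher in all 4 libraries, with a median of 0.57 against -0.00172 over all genes tested, where 6.33% were higher in all 4. Among members that did not pass were Ptgs1, a prostaglandin synthase, at 112, 109, 167 and 79.6 CPM against 75.9, 65.7, 72.8 and 58.8 CPM (edgeR adjusted p 0.0628) and Fabp4, a fatty acid carrier, at 18.2, 56.1, 46.6 and 36.2 CPM against 17.4, 15.8, 14 and 3.01 CPM (0.235). Of 14 periportal sinusoidal genes, all tested, 1 passed as lower (Msr1) and 0 as higher, 11 had a negative log2 fold change, and 9 were lower in all 4 libraries, with a median of -0.49; 6.90% of all genes tested were lower in all 4. Among those that did not pass were Galnt15, a glycosyltransferase (42.7, 90.4, 82.2 and 36.2 against 104, 116, 125 and 93.4 CPM, edgeR adjusted p 0.0782), Efnb2, an ephrin ligand of arterial and periportal endothelium (39.8, 109, 68.5 and 79.6 against 92.9, 139, 108 and 136 CPM, 0.0983), and Ntn4, a netrin (162, 197, 162 and 101 against 239, 298, 199 and 172 CPM, 0.181). With doublets removed 5 of 7 tested pericentral genes passed as higher, against 2.67% of all 7715 genes tested, and 7 of 14 periportal genes as lower, against 5.85%. With depths also matched these were 4 of 7, against 1.14% of 5269 genes, and 7 of 10, against 1.48%.

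Lists of other pathways were read against the 0.189% of all genes that passed and the 4.40% with an unadjusted p below 0.05. Of 34 WNT and R-spondin pathway genes, without the ligands of the rule, 23 were tested, 0 passed, 1 had an unadjusted p below 0.05, and the median log2 fold change was 0.02; the co-receptor gene Lrp5 was at 215, 288, 260.2 and 210.0 CPM against 202, 195, 223 and 176 CPM (edgeR adjusted p 0.9999; with doublets removed 0.000603). Of 16 VEGF and angiopoietin genes 14 were tested, Vegfc passed as lower, and Kdr, the main VEGF receptor, was at 349.6, 450.4, 367 and 376 CPM against 381, 420.2, 368 and 464 CPM. For the BMP and TGF-beta, Notch and guidance lists, 0 of 21, 0 of 11 and 0 of 22 tested genes passed, with 3, 2 and 8 at an unadjusted p below 0.05. Of 16 scavenger and pan-sinusoidal genes 14 were tested and 0 passed, 2 of them at an unadjusted p below 0.05. For 38 endothelial transcription factors 33 were tested and 0 passed, 4 at an unadjusted p below 0.05. With doublets removed, where 2.67% of all genes passed as higher and 5.85% as lower, these lists held more calls. The WNT list then had 1 higher and 5 lower of 20 tested, the VEGF list 2 and 3 of 13, the BMP and TGF-beta list 3 and 0 of 20, and the Notch list 1 and 0 of 11. The guidance list had 4 and 5 of 20, the scavenger list 1 and 2 of 14, and the transcription factors 4 and 1 of 30. DESeq2, with doublets kept, made 16 calls over all genes, 14 of them among the 18.

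The levels were also read along the count of the 5 genes, from 0 and 1 through 2 to at least 3 UMIs per nucleus, as a description. Mean Cdh13 over the 4 libraries was 272, 361, 460.2 and 905 CPM along these steps, and Plppr5 30.8, 45.3, 52.9 and 140.4 CPM. Both rose at each step of the means, with the highest levels at 3 or more UMIs. Msr1 went from 105 through 63.4 and 39.7 to 35.9 CPM and Vegfc from 45.2 through 20.1 and 13.9 to 4.72 CPM, so nuclei with a single UMI of the 5 genes already lay well below those with 0. Adamtsl1 was at 5.81, 5.45 and 3.13 CPM up to 2 UMIs and at 69.5 CPM at 3 or more, where Brca1-KO replicate 2 held 0. Kdr was at 399, 376, 378 and 384 CPM along the steps.

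**Figure D2:**
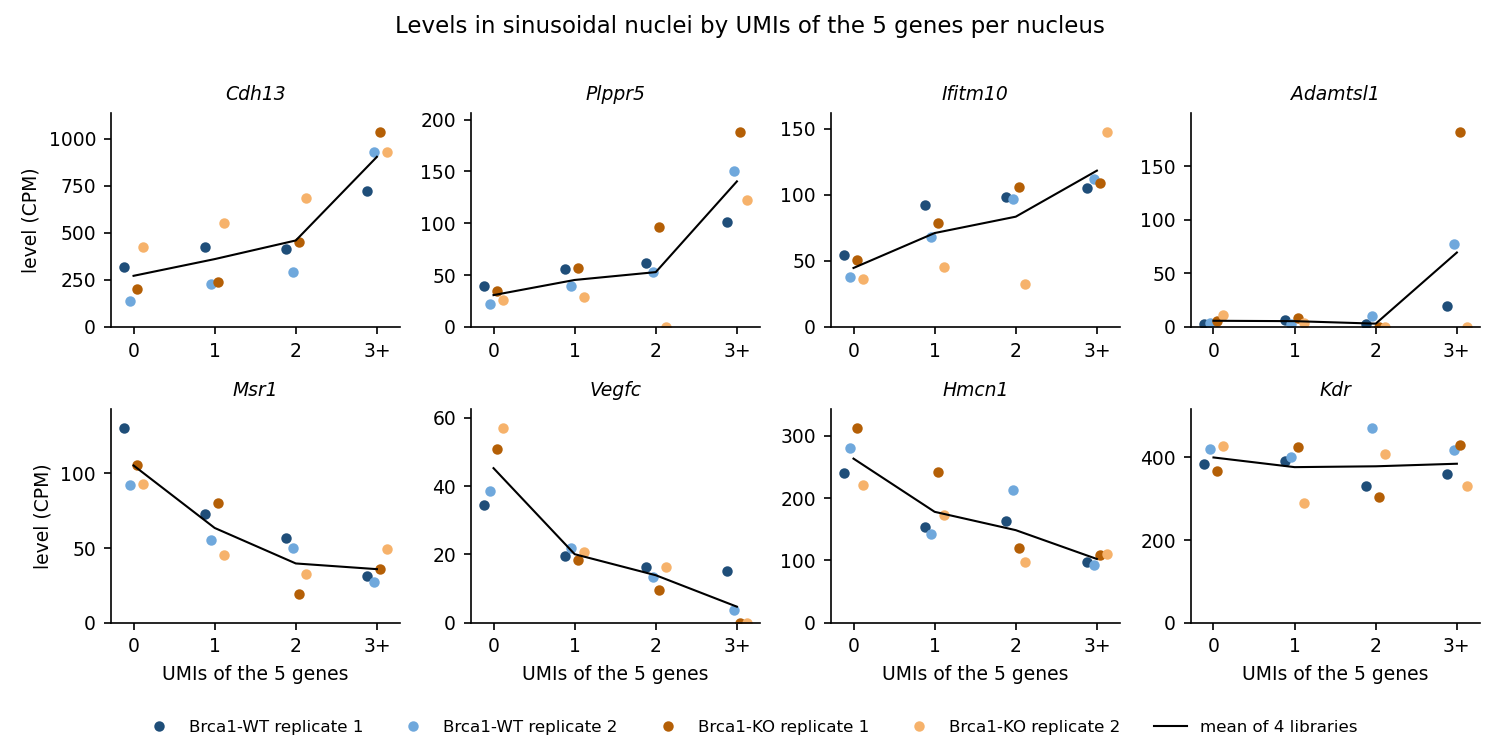
Level in CPM (y axis, linear from 0) of 8 genes in sinusoidal nuclei with 0, 1, 2 or at least 3 UMIs of the 5 pericentral genes (x axis); points are the 4 libraries and the line their mean. Cdh13 climbed from 272 to 905 CPM and Msr1 went down from 105 to 35.9 CPM, while Kdr stayed between 376 and 399 CPM.

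The pericentral nuclei were not uniform. The 62, 50, 31 and 8 nuclei with an Rspo3 UMI differed in several genes from the 306, 151, 100 and 36 without; the split and the genes shown were chosen after values were seen and carry no test. Vwf, von Willebrand factor, which marks the endothelium of larger vessels, had a UMI in 4, 12, 11 and 2 of the nuclei with Rspo3 and in 0, 1, 0 and 0 of those without. In zero-UMI nuclei it was found in 17 of 795, 24 of 1112, 14 of 872 and 7 of 425. Its UMIs came from few nuclei, the 3 richest holding 14 of 16, 16 of 40, 51 of 72 and 4 of 4. All but 1 of the Vwf-holding pericentral nuclei carried Rspo3. Stab2, one of the sinusoidal genes of the rule, had a UMI in 56 of 62, 37 of 50, 20 of 31 and 8 of 8 nuclei with Rspo3. Without Rspo3 it was found in 306 of 306, 150 of 151, 100 of 100 and 36 of 36. Whether the Vwf-holding nuclei, or those with Rspo3 and no Stab2 UMI, came from larger vessels was not tested. Of 12 large-vessel genes 7 were tested between the classes. Among them 1 passed as higher (Lhx6, which the pericentral list also holds), against 0.136% of all genes. Lhx6 entered the test only through the pericentral sums, where it was high, so this count is a description. All 7 had a positive log2 fold change, with a median of 0.68 against -0.00172. With doublets removed 4 of 6 passed as higher, against 2.67%.

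Other genes followed the same split. Mecom, a transcriptional regulator, stood at 264, 279, 658 and 265 CPM with Rspo3 and 28.4, 70.3, 19.9 and 7.83 CPM without. Selp, which encodes P-selectin, stood at 28.9, 118, 112 and 66.2 CPM against 3.46, 2.27, 0 and 15.7 CPM. Cdh13 was at 1001, 1521, 1764 and 2649 CPM against 501, 335, 461 and 610.4 CPM, and Fmo2 at 275, 1065, 1120.0 and 199 CPM against 136, 70.3, 49.8 and 0 CPM. For these 4 genes the values with Rspo3 were higher in every library. In Brca1-KO replicate 2 most of these values rest on few UMIs: with Rspo3 against without, 1 against 2 for Selp, 4 against 1 for Mecom and 3 against 0 for Fmo2. Adamtsl1, with 54.2, 161, 406 and 0 CPM against 3.46, 9.07 and 3.32 CPM in the first 3 libraries, was at 0 in both subsets of Brca1-KO replicate 2. Ifitm10 did not follow it, at 97.6, 109.8, 56 and 66.2 CPM with Rspo3 against 103, 102, 119 and 102 CPM without. Kit was lower with Rspo3 in all 4, a direction that the rule itself favours. Nuclei without Rspo3 had to reach 2 UMIs with Kit and the other selecting genes, whereas 15, 20, 14 and 5 nuclei with Rspo3 held neither Kit nor Wnt2.

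**Figure D3:**
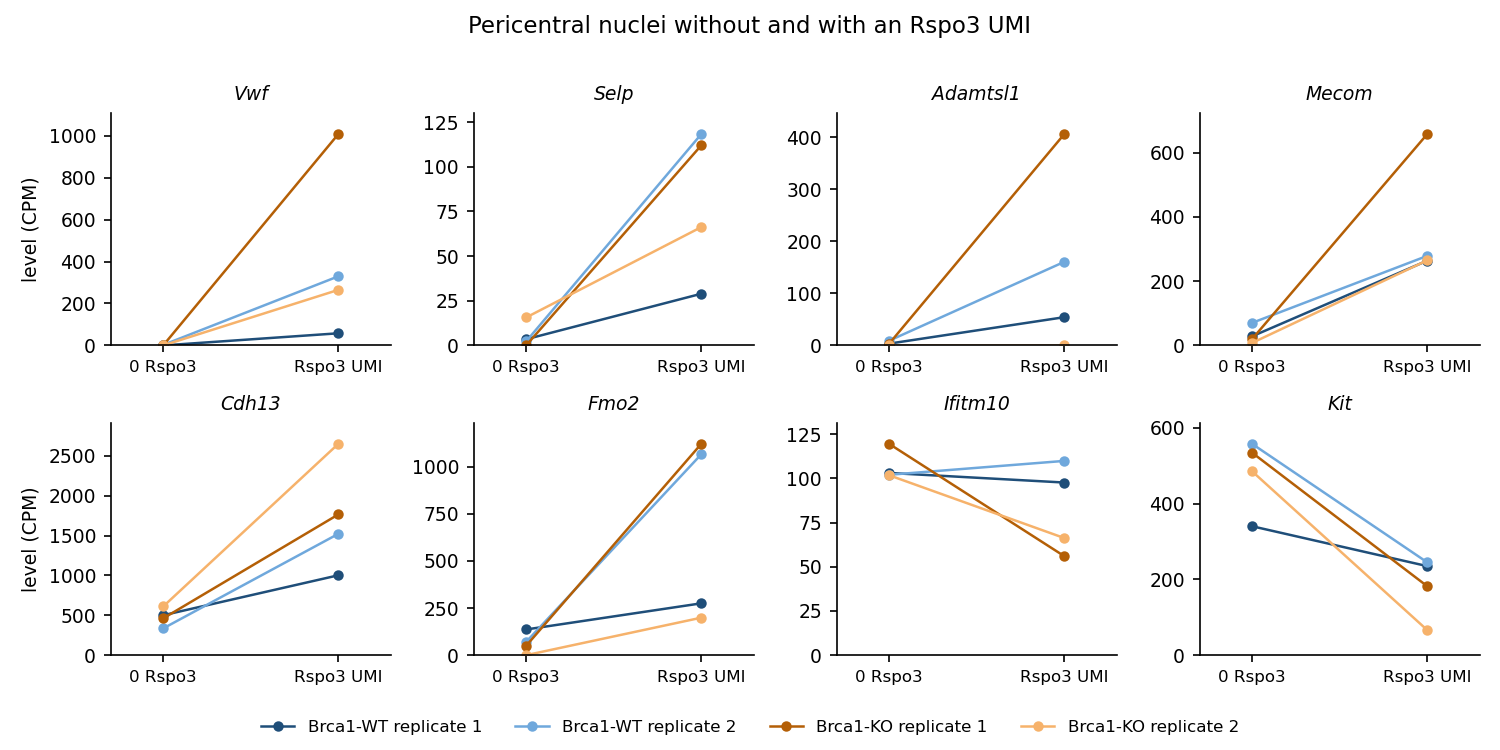
Level in CPM (y axis, linear from 0) of 8 genes in pericentral nuclei without and with an Rspo3 UMI; each line joins the 2 subsets of 1 library. Vwf was at 57.8 to 1008 CPM with Rspo3 and at or near 0 without, whereas Ifitm10 lay between 56.0 and 119 CPM in both.

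The comparison with zero-UMI nuclei was therefore repeated without the Rspo3-holding nuclei, an alternative added after seeing the data. It called 18 genes, 6 higher and 12 lower, and 8 of the earlier 18 remained. Plppr5 (1.36), Ifitm10 (1.21), Pde4b (1.01) and Cdh13 (0.90) stayed higher and Msr1 (-1.39), Hmcn1 (-0.96), Slc45a4 (-1.97) and Vegfc (-1.75) stayed lower, with edgeR adjusted p of 0.00366 or less. Cit (0.51) and Zfp423 (0.70) were not called (both adjusted p 1), but passed with doublets also removed (0.64, adjusted p 0.0341, and 0.85, adjusted p 0.0237). Fmo2 changed sign (-0.32, adjusted p 1), and with doublets also removed it passed as lower (-0.96, edgeR adjusted p 0.00530). Lhx6 and Adamtsl1 had too few counts to be tested. Vwf and Mecom were also called lower, but the split was chosen after values were seen and took nearly all Vwf-holding nuclei out of the pericentral class alone, which fixes the direction for Vwf, so these values are no test. Mecom was lower in all 4 libraries before the split, at 66.8, 116, 145 and 36.2 CPM against 116, 256, 163 and 250.2 CPM (log2 -0.92 ± 0.208, edgeR adjusted p 0.0983).

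With called doublets removed from both classes, 657 genes passed, 206 higher and 451 lower, and 14 of the 18 remained; Lhx6 and Adamtsl1 were no longer tested, and Fmo2 (1.54, adjusted p 0.238) and Sntg1 (1.85, adjusted p 0.0784) did not pass although their log2 fold changes were no smaller. Of the 451 lower genes, 417 had a lower level in all sinusoidal nuclei than in all kept nuclei, which holds for 49.6% of the genes fitted with doublets kept, and Bhmt (-0.83, edgeR adjusted p 1.19e-07) was among them. Of the 206 higher genes, 154 were at least 2-fold higher in sinusoidal than in all kept nuclei, which holds for 14.7% of the genes fitted with doublets kept. With doublets removed and each pericentral nucleus matched in depth to a zero-UMI nucleus of its library, 138 genes passed, 60 higher and 78 lower. Of the 18, 14 remained, but not the same 14: Fmo2 passed (1.43, edgeR adjusted p 2.73e-10) and Slc45a4 was no longer tested. The summed level of the hepatocyte list was given above; its part in the counts of calls was not tested.

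The second comparison concerned the labelled genotypes. The pericentral share of sinusoidal nuclei was 24.1% (exact Clopper-Pearson 95% interval 22.0% to 26.3%, 368 of 1526) and 12.5% (10.9% to 14.2%, 201 of 1609) in the Brca1-WT libraries, and 10.7% (9.05% to 12.6%, 131 of 1221) and 7.71% (5.65% to 10.2%, 44 of 571) in those labelled Brca1-KO; the intervals cover counting error only. The means were 18.3% ± 8.22 and 9.22% ± 2.14 (SD, n = 2 each). Both labelled Brca1-KO values lay below both Brca1-WT values, but the Brca1-WT libraries differed from each other by more than the groups did, and a 2-sided exact permutation test gave p = 0.333, which 2 libraries against 2 cannot go below. The difference of -9.09 percentage points in the share of sinusoidal nuclei that are pericentral was -3.27 without Brca1-WT replicate 1 and -14.9 without Brca1-WT replicate 2. With each nucleus thinned to 1000 UMIs, which left out 65, 339, 181 and 107 shallower nuclei, the shares were 9.31%, 6.54%, 5.77% and 4.09%, in the same order. Of all kept nuclei, pericentral nuclei were 5.59%, 2.67%, 2.60% and 0.682%. Fewer pericentral cells and less RNA of the 5 genes per nucleus cannot be told apart here.

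**Figure D4:**
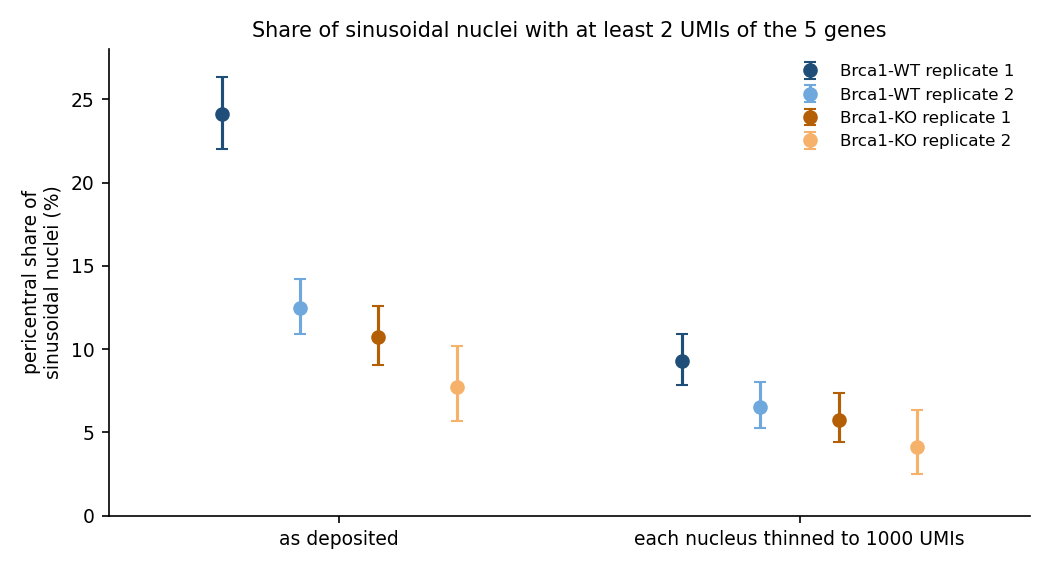
Pericentral share of sinusoidal nuclei in percent (y axis, linear from 0) for each library, as deposited and with each nucleus thinned to 1000 UMIs; bars are exact 95% intervals for counting error. Shares ran from 24.1% in Brca1-WT replicate 1 to 7.71% in Brca1-KO replicate 2 as deposited and from 9.31% to 4.09% after thinning.

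The 5 genes were then compared over all sinusoidal nuclei, which they did not choose. Wnt2 stood at 101, 65.4, 61.4 and 68.4 CPM, and the groups overlapped (log2 Brca1-KO minus Brca1-WT -0.37 ± 0.247). Kit stood at 139.9, 108, 93.5 and 117 CPM (log2 -0.24 ± 0.210) and Wnt9b at 7.87, 5.53, 6.82 and 4.81 CPM (log2 -0.14 ± 0.397), also with overlap. Rspo3 stood at 48.7, 57.1, 54.9 and 21.2 CPM, low in Brca1-KO replicate 2 alone (log2 -0.38 ± 0.398). Thbd stood at 9.93, 6.54, 4.87 and 3.85 CPM, the only one of the 5 whose groups did not overlap (log2 -0.87 ± 0.415, unadjusted p 0.0774 and adjusted p 1 in edgeR). Groups did not overlap for 31.2% of the 12195 genes tested, and 0% passed in edgeR, with 313 at an unadjusted p below 0.05 and 3 called by DESeq2; without Brca1-KO replicate 1 edgeR called 89, and 0 without each of the others.

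**Figure D5:**
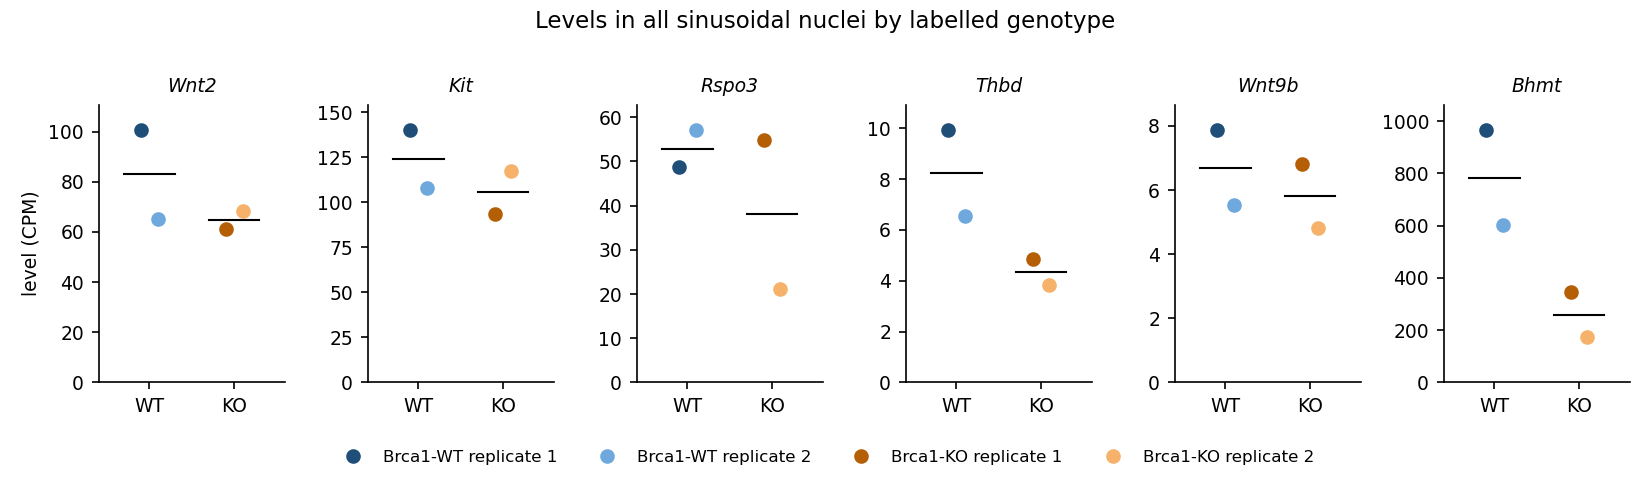
Level in CPM (y axis, linear from 0) of the 5 pericentral genes and Bhmt in all sinusoidal nuclei by labelled genotype; points are libraries and lines are group means. Wnt2, Kit, Wnt9b and Rspo3 overlapped between the labels, while Bhmt was at 966 and 601 CPM against 348 and 172 CPM.

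Within the pericentral nuclei, 0 of 6893 genes (0%) passed in edgeR between the labels, 118 had an unadjusted p below 0.05, and DESeq2 also called 0. The groups did not overlap for 29.4% of genes. Bhmt stood at 1067, 431, 238 and 122 CPM, without overlap (log2 -2.01 ± 0.537, unadjusted p 0.00784, edgeR adjusted p 1), and the log2 difference was -1.14 with doublets removed. In zero-UMI nuclei it stood at 993, 651, 379 and 147 CPM and in all kept nuclei at 1624, 1082, 654 and 257 CPM, so the order of the libraries was the same in all. In edgeR's test of whether the difference between labels depended on the class, 0% of 9535 genes passed and 201 had an unadjusted p below 0.05; Slc1a2 had the smallest p (log2 -2.67 ± 0.520, edgeR adjusted p 0.9999; -0.27 and 0.996 with doublets removed), and 17 genes passed without Brca1-KO replicate 2 against 0 or 1 without each of the others.

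Of the 16 genes named by the rule of smallest p without overlap, 14 had a lower level in sinusoidal nuclei than in all kept nuclei, against 49.4% of the genes fitted. Cyp4a10, a fatty acid omega-hydroxylase, stood at 302, 288, 78.4 and 91.5 CPM (log2 -1.82 ± 0.283, unadjusted p 0.000411), and Slc1a2, a glutamate transporter of perivenous hepatocytes, at 279, 136, 16.8 and 45.7 CPM (log2 -2.99 ± 0.595, unadjusted p 0.00167). The others named as lower were Cyp2c37, Slco1a4, Cyp4a14, Aldh9a1, Rassf4 and Ripor2. Calr, a chaperone of the endoplasmic reticulum, stood at 23.2, 18.7, 67.2 and 61 CPM (log2 1.59 ± 0.372, unadjusted p 0.00402), and Adamts10 and Slc15a2, the 2 named genes with a higher level in sinusoidal nuclei, at 42.7, 54.1, 101 and 99.1 CPM and at 18.3, 42.9, 165 and 45.7 CPM. The others named as higher were Cyp2f2, Hal, Ptpn3, Tmem25 and Prdm15. The edgeR adjusted p of each was 1. With doublets removed several log2 differences shrank, to -0.65 for Cyp4a10, -0.56 for Slc1a2, -0.30 for Cyp2c37, 0.30 for Hal, 0.39 for Ptpn3 and -1.13 for Cyp4a14. Those of Slco1a4 (-1.22), Slc15a2 (1.96), Adamts10 (0.90) and Prdm15 (0.97) moved by less than 1.5 times, and the other 6 were no longer tested. The perivenous hepatocyte list, whose 22 genes were present but for 2, 2, 5 and 3, summed to 4772, 2820, 1357 and 5081 CPM in these nuclei; its part in the differences was not tested.

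Left-out libraries changed the number of calls. Omitting Brca1-WT replicate 1 gave 0, omitting Brca1-WT replicate 2 gave 10, omitting Brca1-KO replicate 1 gave 142 and omitting Brca1-KO replicate 2 gave 30, each leaving 1 group with a single library assumed to vary like the other group. Of the 169 genes called in any, 11 were called in 2 or more, Bhmt, Cyp4a10, Slc1a2 and Slc15a2 among them. The lists showed 0 calls in either direction. Of 25 unfolded protein response genes 18 were tested, 16 with a positive log2 fold change and a median of 0.68 against 0.00 over all genes tested, and 3 did not overlap, all higher, against 14.3% of all genes. With doublets removed its median was 0.36 over 11 genes. That list summed to 1591, 1244, 1387 and 3142 CPM, high in Brca1-KO replicate 2 alone. Of 21 immediate early and heat shock genes 7 were tested, all 7 with a positive log2 fold change. Their median was 0.53 (0.52 over 4 genes with doublets removed), and 6 did not overlap, all higher, against 14.3% of all genes. Of the 8 tested pericentral sinusoidal genes outside the rule 2 did not overlap, each higher, against 14.3% of all genes. The median of the 8 was 0.23, and Cdh13 stood at 610.1, 612, 742 and 899.7 CPM (log2 0.42 ± 0.306).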

How the data were processed

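Single-nucleus RNA sequencing, which counts transcripts of isolated nuclei in droplets, gave 4 deposited matrices of raw UMI counts per gene and barcode, which the authors made with Cell Ranger 6.0.0, as recorded per the file headers; these are not normalized. The kit is a 10x 3′ one per the labels, whose molecule field reads genomic DNA. The submitters' processing notes name a human build while the gene identifiers are mouse, so the mouse build is unknown here, as is whether counting used introns or strand. The members and gene lists were chosen with earlier results of these data known. Counts were summed per library and class and fitted with edgeR 4.0.16 in R 4.3.3 (TMM, filterByExpr, glmQLFit, glmQLFTest), with library as a block between classes and no block between labels. The genes of the rule were fitted but not tested. Levels in fits are TMM-scaled CPM; those of gene lists, subsets, steps of the 5 genes and all kept nuclei are plain CPM. Doublets were called with Scrublet in scanpy 1.11.5 (expected rate 0.06). Named genes were Brca1, Bhmt, up to 12 passing each way between classes with average log2 CPM 4 or more and 1 direction in all 4 libraries, up to 8 each way between labels at 5 or more without overlap, up to 3 each way of the class by label test, and up to 4 and 2 members a list; called genes outside it (Lhx6, Adamtsl1, C1qtnf7) and genes of the Rspo3 split were named after their values were seen. The fits were tested on simulated counts. Between classes they recovered 91 of 100 genes changed 2-fold and 100 of 100 changed 4-fold. Between labels in pericentral nuclei they recovered 6 of 99 and 67 of 96, so 0 calls there cannot show that genes were unchanged. Alternatives were other scaling, no filter, DESeq2 1.42.0, doublets removed, other cutoffs, matched or thinned depth, other blocks and each library left out.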

Additional observations from a re-analysis of the deposited data

Results flagged for a closer look

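Slc40a1, which encodes the iron exporter ferroportin and was named as a member of the Kupffer cell list, is listed because its pericentral to zero-UMI difference had opposite signs in the labelled genotypes. On the log2(CPM + 1) scale pericentral minus zero-UMI was -0.166 and -0.0992 for Brca1-WT, whereas for the Brca1-KO label it was 0.0473 and 0.102. The fitted difference of differences was 0.21, with an unadjusted p of 0.518 and an adjusted p of 0.9999 in edgeR, so the difference between the labels did not pass.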

How the results depend on the processing

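Between classes, the 18 calls became 77 without a filter on low counts, 53 with Wnt2, Rspo3 and Wnt9b as the only selecting genes, 53 with nuclei thinned to 1000 UMIs, 83 with matched depth, 657 with doublets removed, and 3 with no library block; leaving out each library gave 13 to 24. Of the alternatives chosen after seeing the data (these, and the crossed pairing below), removing doublets and matching depth together gave 138 calls, leaving out Rspo3-holding nuclei 18, and leaving these out with doublets removed 631. Fmo2 reversed without Rspo3-holding nuclei (-0.32, and -0.96 with doublets also removed), as did Vwf (-5.18 and -7.61), for which the split itself fixes the direction. For Fmo2 the cause was not tested. For the 18 called genes, 206 of 269 alternative values kept their side of the threshold, 61 lost it with the same direction and 2 reversed. Between labels in pericentral nuclei, the 0 calls became 14 without a filter and 0 to 142 with a library left out. The class by label test gave 1 call without a filter, 2 with doublets removed, 4 with Wnt2, Rspo3 and Wnt9b alone and 0 to 17 with a library left out. All sinusoidal nuclei gave 51 calls without a filter, 3 with DESeq2 and 0 to 89 with a library left out. Same-numbered libraries did not deviate together (r of -0.33 and -0.14 over genes), and both the replicate block and the crossed pairing gave 0 calls in either sum. The share of sinusoidal nuclei that are pericentral differed between labels by -9.09 percentage points; this was -12.3 at 1 UMI or more, -4.36 at 3 or more, -8.71 with doublets removed, -2.99 after thinning, and -14.9 to -3.27 with a library left out. The 44 nuclei of Brca1-KO replicate 2, with 142893 UMIs, limit every comparison between labels.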
